A study of Mus musculus with 4 samples.

Results

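The 58 genes described here encode proteins that hold cells to each other and to their surroundings: integrins, the Icam and Vcam1 ligands of integrins, cadherins and protocadherins, desmosomal proteins with plakoglobin, and claudins with Tjp3 and Epcam. They were taken by the form of their gene symbols, without regard to their values, from 10598 genes measured by RNA sequencing in thymus of C57BL/6J mice, and 22 of them are gamma-protocadherin rows with nearly the same value within a library. There were 4 groups with 1 library each: CAMKIIgamma-/- mice given N-methyl-N-nitrosourea (KO-MNU), CAMKIIgamma-/- mice given vehicle (KO-vehicle), wild-type mice given MNU (WT-MNU) and wild-type mice given vehicle (WT-vehicle). CAMKIIgamma is the kinase encoded by Camk2g, and MNU is an alkylating mutagen that induces T-cell lymphoma in mice. MNU was injected once into the peritoneum at 75 mg/kg when mice were 4 to 5 weeks old, and all 4 groups are labelled with 6 months of treatment. The RNA came from whole thymus, a mixture of cell types, and the labels do not say whether a sequenced thymus held a tumour or whether animals were pooled. The study asked what loss of CAMKIIgamma does to gene expression in normal and malignant thymus. The normalised counts of a library summed to between 32911362 and 34836257. Each group had 1 library, so the spread between replicates is unknown, no test was possible and no value below carries an error.

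Integrins are alpha-beta heterodimers that bind matrix proteins or ligands on other cells, and the beta-2 integrins are confined to leukocytes. Cadherins bind cadherins of the neighbouring cell, desmosomal cadherins are tied to keratin filaments through plakoglobin and desmoplakin, and claudins seal the gap between epithelial cells at tight junctions. In the thymus, developing T cells move over a framework of epithelial cells, using alpha-4 integrins with Vcam1 and the beta-2 integrin LFA-1 with Icam1, and the epithelial cells are themselves joined by desmosomes.

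The deleted gene Camk2g had 29.7 normalised counts in KO-MNU, 489 in KO-vehicle, 3173 in WT-MNU and 2749 in WT-vehicle, so the KO-vehicle library held more of it than KO-MNU did. Across 42 genes above 1000 in WT-MNU, and there over 20-fold their KO-MNU and WT-vehicle levels, none of them an adhesion gene described here, KO-vehicle held a median of 15.4% of the WT-MNU level (5th to 95th percentile 13.9% to 18.5%). The source of this share was not tested, and calls that rest on KO-vehicle, and directions that turn when the share is subtracted, are also given with the share subtracted. To subtract it, 15.4% of the WT-MNU value was taken from KO-vehicle and the rest was scaled up to a full library. Genes low in WT-MNU therefore rise in KO-vehicle in this step.

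WT-MNU was the library at one end of the range for 54 of the 58 genes. It held the highest value for 28 of them and the lowest for 26, and for the 36 genes other than gamma-protocadherins it was the highest for 6 and the lowest for 26. Across genes WT-MNU also stood apart, with rank correlations of 0.837 to 0.867 to the other libraries, against 0.981 to 0.982 among those. The share of all genes with WT-MNU at one end is not given here, so these counts are not particular to adhesion genes. Values below are the authors' normalised counts. A gene is called higher or lower where 2 libraries differed at least 2-fold on the scale log2(normalised count + 10), which understates the difference of low genes. Of the 58, 25 were higher in WT-MNU than in WT-vehicle, against 7.14% of the 10587 genes with a mean of at least 10. The 25 were the 22 gamma-protocadherin rows, Itga9, Itgam and the row named Pcdha4-g, so with the gamma rows counted as 1 measurement the count was 4 of 37. Another 14 of the 58 were lower (24.1%), against 14.2% of all genes. The median log2 difference, WT-MNU minus WT-vehicle, was -0.82 for the 36 genes without the gamma rows and -0.01 for all genes.

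In the knockout the same comparison gave no call. None of the 58 genes was higher in KO-MNU than in KO-vehicle, where 0.331% of all genes were, and none was lower, where 2.95% were. Their log2 differences ran from -0.98 (Itgam) to 0.83 (Itgad). Of the 36 genes without the gamma rows, 28 (77.8%) lay within 0.5 of 0 on the log2 scale, against 90.8% of all genes. With the WT-MNU share subtracted from KO-vehicle the count was also 0 and the log2 differences ran from -0.85 to 0.73. The direction then turned for 7 of the 36 genes, Cldn1, Cldn25, Itga9, Itgam, Itgb5, Jup and Tjp3, whose differences were at most 0.98 in size before and at most 0.38 after. For Cldn1, Cldn25 and Itgb5 the KO-vehicle value rose in this step, through the scaling up (564 to 666 for Cldn1). Without the subtraction, the plot of the MNU difference in one genotype against the other shows a band. It is wide along the wild-type axis and narrow along the knockout axis.

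**Figure D1:**
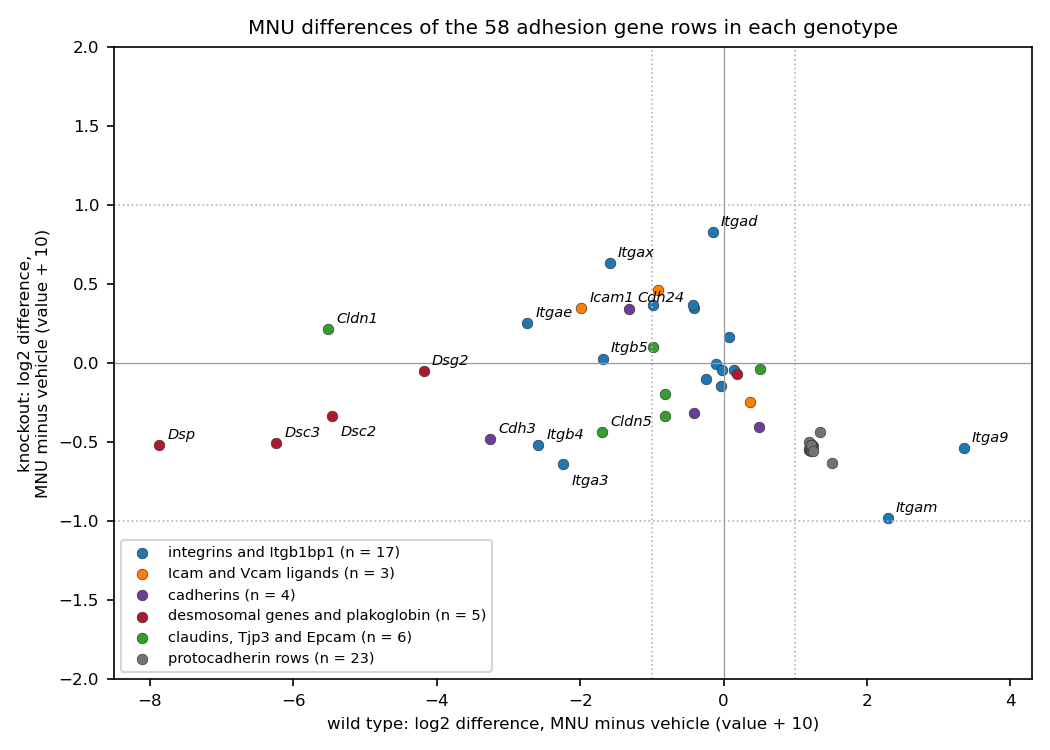
Log2 difference between MNU and vehicle, on normalised counts + 10, in wild type (x axis) and in the knockout (y axis) for the 58 gene rows, coloured by class, with 1 library per group. Dotted lines mark 2-fold: 25 rows lie right of the band and 14 left of it in wild type, and no row lies outside it in the knockout.

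**Figure D2:**
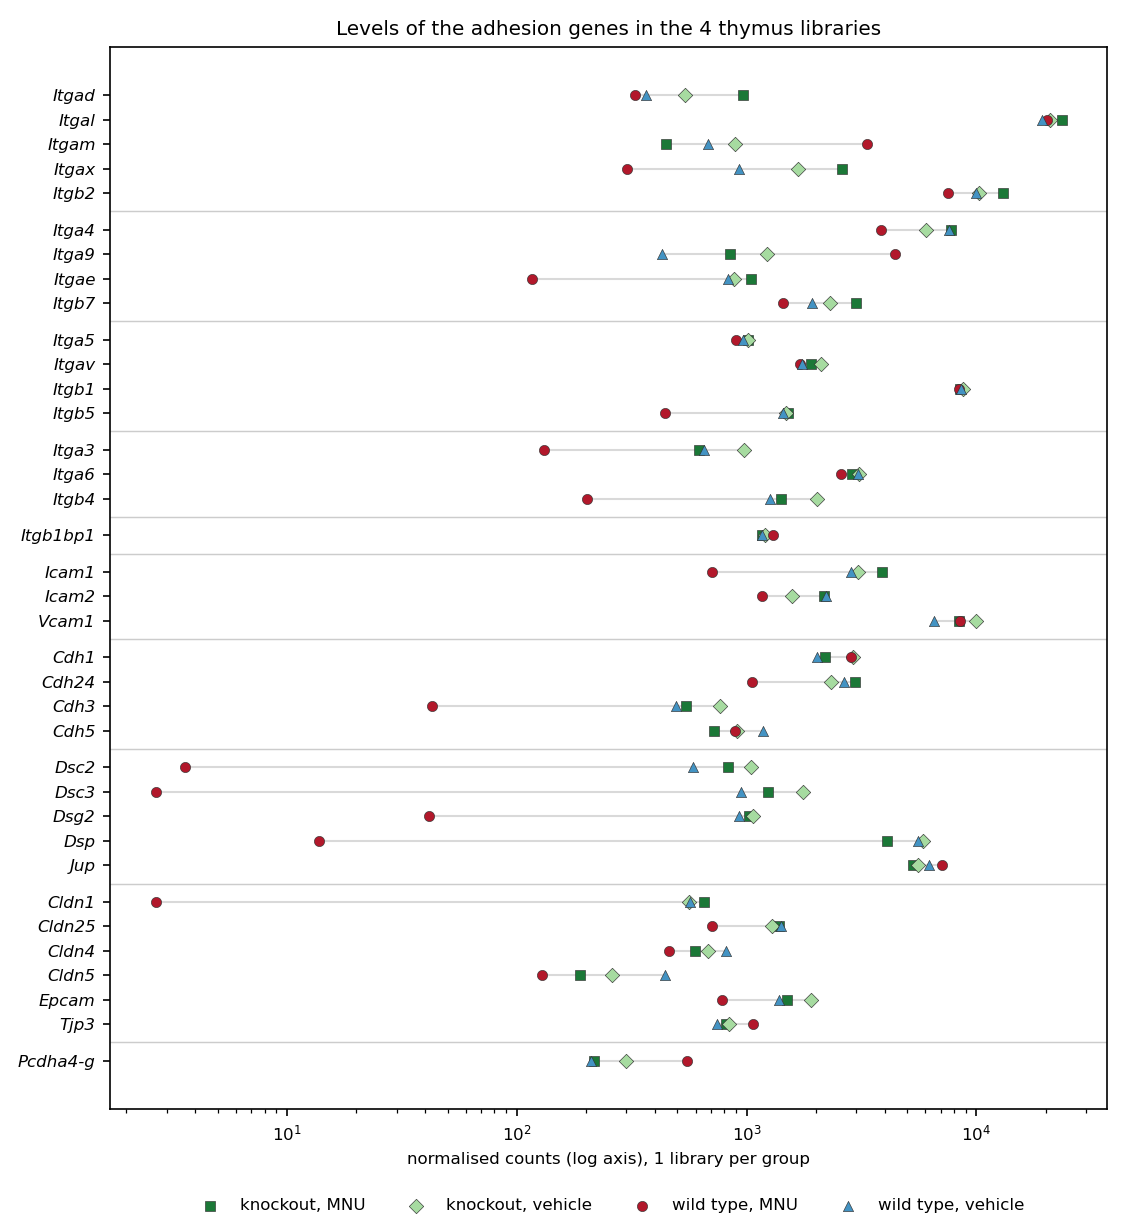
Normalised counts (log axis) of the 36 genes other than gamma-protocadherin rows in the 4 thymus libraries, grouped by class, 1 point per library with a line over the range of each gene. WT-MNU is the lowest point for 26 of the 36 genes and the highest for 6.

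Desmosomal transcripts were among those that differed most. Dsp encodes desmoplakin, the plakin that anchors keratin filaments, and its normalised counts were 4096 in KO-MNU, 5879.5 in KO-vehicle, 13.8 in WT-MNU and 5556 in WT-vehicle. WT-MNU held 0.249% of the WT-vehicle level, whereas KO-MNU held 69.7% of the KO-vehicle level. Dsc3, a desmosomal cadherin of stratified and basal epithelium, stood at 1234 in KO-MNU, 1755 in KO-vehicle, 2.68 in WT-MNU and 947 in WT-vehicle. Dsc2, a more widely expressed desmocollin, stood at 826 in KO-MNU, 1043 in KO-vehicle, 3.61 in WT-MNU and 586 in WT-vehicle. For both desmocollins WT-MNU was near 0 and the other 3 libraries lay within 2-fold of each other. Their log2 differences, WT-MNU minus WT-vehicle, were -6.24 for Dsc3 and -5.45 for Dsc2. Dsg2, the desmoglein of simple epithelia, kept more of its level, at 1026 in KO-MNU, 1062 in KO-vehicle, 41.7 in WT-MNU and 927 in WT-vehicle, so that WT-MNU held 4.50% of WT-vehicle. Jup, plakoglobin, which is shared between desmosomes and adherens junctions, went with none of these, at 5301 in KO-MNU, 5575 in KO-vehicle, 7086 in WT-MNU and 6241 in WT-vehicle, a log2 difference of 0.18 in wild type and -0.07 in the knockout. In whole tissue, fewer cells of a type and less RNA per cell cannot be told apart.

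Among claudins and their neighbours at tight junctions, 1 gene was near 0 in WT-MNU. Cldn1, a sealing claudin of skin and other epithelia, stood at 656 in KO-MNU, 564 in KO-vehicle, 2.68 in WT-MNU and 567 in WT-vehicle, and WT-MNU held 0.473% of WT-vehicle. Cldn5, the claudin of endothelial tight junctions, stood at 189 in KO-MNU, 259 in KO-vehicle, 129 in WT-MNU and 441 in WT-vehicle. It was 3.42-fold lower in WT-MNU than in WT-vehicle, and it was also lower in KO-MNU than in WT-vehicle, with a log2 difference of -1.18. Cldn5 was thus highest in WT-vehicle and below it in the other 3 libraries. Cldn4, Epcam, an epithelial adhesion protein that binds claudins, and Tjp3, a scaffold of the zonula occludens family, stayed within 2-fold in every comparison. WT-MNU held 56.1% of the WT-vehicle level of Cldn4 and 56.5% of that of Epcam, but 143% of that of Tjp3. The row named Cldn25, a symbol that RefSeq lists as an older name of both Cldn25-ps and Cldnd1, held 50.2%, a log2 difference of -0.98 that just missed the call.

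Classical cadherins differed among themselves. Cdh3, P-cadherin, a cadherin of basal epithelial cells, stood at 544 in KO-MNU, 765 in KO-vehicle, 42.6 in WT-MNU and 491 in WT-vehicle, 11.5-fold lower in WT-MNU than in WT-vehicle. Cdh24, a type II cadherin, was 2.51-fold lower in WT-MNU, at 2949 in KO-MNU, 2321 in KO-vehicle, 1058 in WT-MNU and 2659.6 in WT-vehicle. Cdh1, E-cadherin, the main cadherin of epithelial adherens junctions, was not lower in WT-MNU, at 2194 in KO-MNU, 2905 in KO-vehicle, 2855 in WT-MNU and 2028 in WT-vehicle. Cdh5, VE-cadherin of endothelial cells, was highest in WT-vehicle, with a range over the 4 libraries of 723 to 1181, under 2-fold. The order of the junction genes by what WT-MNU kept thus ran from desmoplakin, the desmocollins and Cldn1, at under 1%, through Dsg2 and Cdh3 to Jup, Cdh1 and Tjp3, at over 100% of WT-vehicle.

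**Figure D3:**
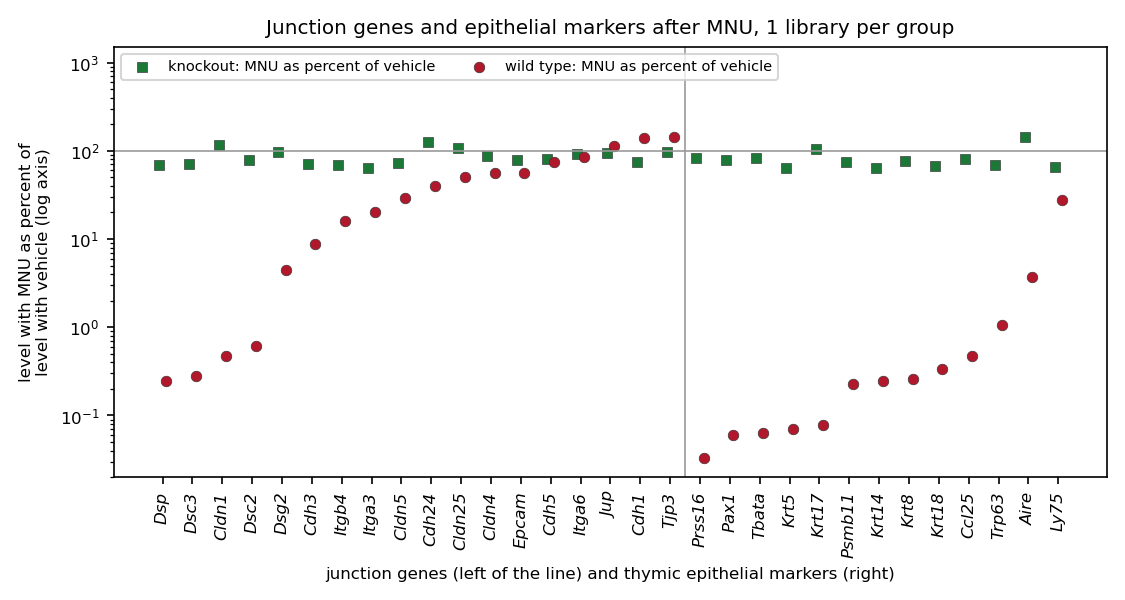
Level with MNU as a percentage of the level with vehicle (log axis) for 18 junction genes (cadherins, desmosomal genes, claudins with Tjp3 and Epcam, and laminin-binding integrins) and 13 of 14 thymic epithelial markers, squares for the knockout and circles for wild type, 1 library per group. In wild type the junction genes spread from 0.249% (Dsp) to 143% (Tjp3), the markers spread from 0.0327% (Prss16) to 27.6% (Ly75), and in the knockout all of them lie between 63.2% (Krt5) and 142% (Aire). Foxn1, listed at 0 in WT-MNU, is not drawn.

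Markers of thymic epithelium were lower in WT-MNU, as was a part of the junction genes. Of 15 listed markers 14 were measured, and their summed normalised count was 89772 in KO-MNU, 117108 in KO-vehicle, 1551 in WT-MNU and 111864 in WT-vehicle. All 14 were lower in WT-MNU than in WT-vehicle, against 14.2% of all genes. Foxn1, the transcription factor that defines the thymic epithelial lineage, was listed at 0 in WT-MNU. The basal and medullary keratin Krt5 stood at 10977 in KO-MNU, 17368 in KO-vehicle, 7.33 in WT-MNU and 10374 in WT-vehicle. The cortical protease Prss16 stood at 18685 in KO-MNU, 22698 in KO-vehicle, 8.26 in WT-MNU and 25293 in WT-vehicle. Dsp, Dsc3, Cldn1 and Dsc2 stood in WT-MNU at 0.249% to 0.616% of their WT-vehicle levels, whereas Cldn4, Epcam, Jup, Cdh1 and Tjp3 stood at 56.1% or more. The 13 markers above 0 stood at 0.0327% to 27.6%, with Aire at 3.72%, Trp63 at 1.06% and the other 10 at 0.468% or less. The part of the epithelial markers in these differences was not tested.

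Integrins that bind laminin split in the same way. Itgb4, whose protein pairs with alpha-6 in the hemidesmosomes of basal epithelium, stood at 1411 in KO-MNU, 2025 in KO-vehicle, 202 in WT-MNU and 1262 in WT-vehicle, 6.26-fold lower in WT-MNU than in WT-vehicle. Itga3, the alpha-3 chain of a laminin receptor of epithelia, stood at 619 in KO-MNU, 969.6 in KO-vehicle, 131 in WT-MNU and 654 in WT-vehicle, 5.00-fold lower. Itga6, which also pairs with beta-1 on thymocytes and other cells, hardly differed, with a range of 2573 to 3073 over the 4 libraries. Itgb5, the beta-5 chain that pairs with alpha-v to bind vitronectin, stood at 1512 in KO-MNU, 1483 in KO-vehicle, 439.6 in WT-MNU and 1436 in WT-vehicle, 3.27-fold lower in WT-MNU. Itgav itself, the fibronectin receptor chain Itga5 and the common chain Itgb1 were level, and Itgb1 had 8496 in KO-MNU, 8772 in KO-vehicle, 8409 in WT-MNU and 8553 in WT-vehicle, a spread of 1.04-fold over the 4 libraries. Itgb1bp1 encodes a cytoplasmic protein that binds the beta-1 tail and is no integrin itself. Its spread was 1.11-fold.

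Among leukocyte integrins, the common beta-2 chain and its lymphocyte partner varied little while the myeloid partners moved apart. Itgb2, the beta-2 chain, had 13104 in KO-MNU, 10303 in KO-vehicle, 7507 in WT-MNU and 9973 in WT-vehicle. Itgal, the alpha chain of LFA-1, had 23491 in KO-MNU, 20930.3 in KO-vehicle, 20237 in WT-MNU and 19192 in WT-vehicle. Neither passed 2-fold in any comparison. Itgam, the alpha chain CD11b of macrophages, neutrophils and NK cells, stood at 445 in KO-MNU, 888 in KO-vehicle, 3350.4 in WT-MNU and 678 in WT-vehicle, 4.94-fold higher in WT-MNU than in WT-vehicle. In the knockout it was lower in KO-MNU than in KO-vehicle, just short of the call (log2 -0.98), but with the WT-MNU share subtracted from KO-vehicle the difference was 0.01. Itgax, the alpha chain CD11c of dendritic cells, ran the other way, at 2591 in KO-MNU, 1668 in KO-vehicle, 303 in WT-MNU and 930.1 in WT-vehicle. It was 3.07-fold lower in WT-MNU than in WT-vehicle, and KO-MNU held the highest level, 2.79-fold that of WT-vehicle. Itgad, the alpha-D chain found on macrophages, stood at 968 in KO-MNU, 541 in KO-vehicle, 327 in WT-MNU and 365 in WT-vehicle, and was 2.65-fold higher in KO-MNU than in WT-vehicle. WT-MNU and WT-vehicle differed little for Itgad (log2 -0.15).

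Myeloid marker lists did not move as one in these libraries, nor did the genes within a list. The 6 measured of 11 dendritic cell markers summed to 159889 in KO-MNU, 142846 in KO-vehicle, 4549 in WT-MNU and 119926 in WT-vehicle. Cd74, H2-Aa, H2-Ab1 and H2-Eb1, genes of MHC class II presentation, made up most of this sum in every library. Ccr7 (log2 -5.78, WT-MNU minus WT-vehicle) and Batf3 (-1.15) were the others, and the listed Flt3, Zbtb46, Xcr1, Clec9a and Siglech were not measured. The 10 measured of 13 macrophage markers summed to 38395 in KO-MNU, 33825 in KO-vehicle, 43900.5 in WT-MNU and 20554 in WT-vehicle. The 5 measured of 10 neutrophil markers summed to 2889 in KO-MNU, 2441 in KO-vehicle, 4359 in WT-MNU and 1541 in WT-vehicle. The dendritic sum was lowest in WT-MNU, with 6 of 6 markers lower there than in WT-vehicle, against 14.2% of all genes. The epithelial sum was also lowest there, and of 9 measured B and plasma cell markers 6 were lower and 1 higher. Which cells carried the MHC class II transcripts was not tested. The macrophage sum was highest in WT-MNU, with 5 of 10 higher than in WT-vehicle, against 7.14% of all genes, and Csf1r at a log2 difference of -0.13. Of the neutrophil markers 4 of 5 were higher in WT-MNU than in WT-vehicle (7.14% of all genes). Also 4 of 5 were higher in KO-MNU than in KO-vehicle (0.331% of all genes), where Itgam was not. Mmp9 made up most of the neutrophil sum in WT-MNU (2509.9), KO-vehicle (2016) and WT-vehicle (1010). The 6 measured of 10 NK and cytotoxic cell markers summed to 4903 in KO-MNU, 4920.0 in KO-vehicle, 2012 in WT-MNU and 2563 in WT-vehicle. Gzma and Prf1 carried that sum in WT-MNU, and the other 4, Klrb1c, Klrk1, Nkg7 and Klrd1, were lower there than in WT-vehicle (list median log2 -3.38). No measured marker of the dendritic, macrophage, neutrophil and NK lists was listed at 0, and their part in the integrin values was not tested.

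**Figure D4:**
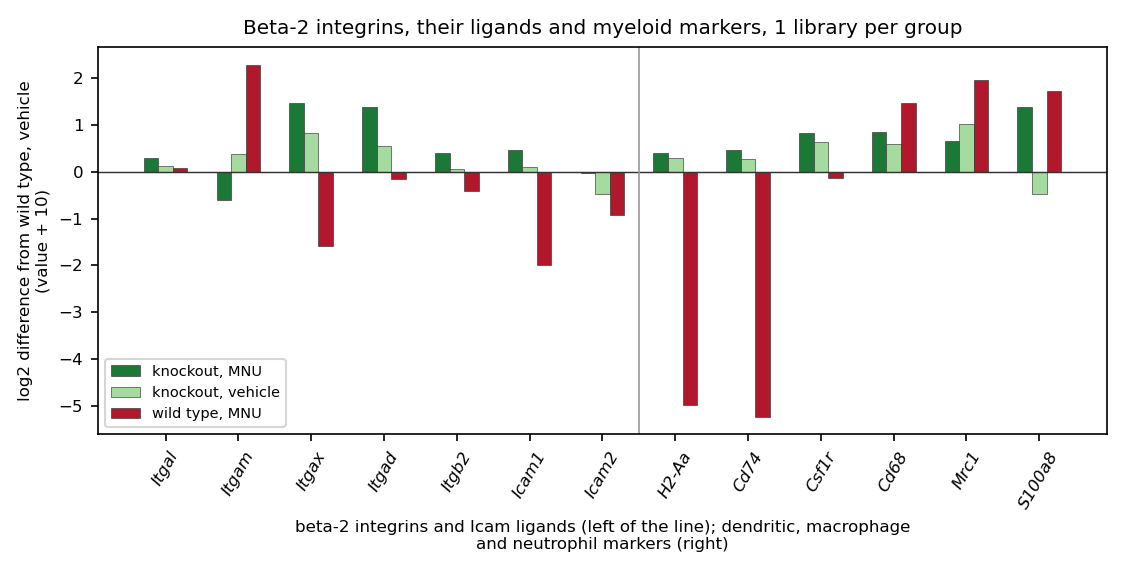
Log2 difference from WT-vehicle, on normalised counts + 10, of 5 beta-2 integrin genes and 2 Icam ligands (left of the line) and of genes from marker lists (right), as bars for KO-MNU, KO-vehicle and WT-MNU, 1 library each. The lists are dendritic (H2-Aa and Cd74, genes of MHC class II presentation), macrophage (Csf1r, Cd68, Mrc1) and neutrophil (S100a8). In WT-MNU Itgam stands at 2.29 and Itgax at -1.59, beside 1.97 for Mrc1, 1.46 for Cd68, -0.13 for Csf1r and -4.98 for H2-Aa.

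Ligands of these integrins also differed from one another. Icam1, the ligand of LFA-1 and of the Itgam integrin, stood at 3893 in KO-MNU, 3057 in KO-vehicle, 708 in WT-MNU and 2841 in WT-vehicle, 4.01-fold lower in WT-MNU than in WT-vehicle. Icam2, a second LFA-1 ligand found on endothelium and lymphocytes, was lower in WT-MNU by less than 2-fold, at 52.7% of WT-vehicle. Vcam1, the ligand of alpha-4 integrins on stromal and endothelial cells, had 8381 in KO-MNU, 9937 in KO-vehicle, 8492 in WT-MNU and 6555 in WT-vehicle, the lowest of them in WT-vehicle and none past 2-fold. The 5 measured of 13 endothelial markers summed to 7639.7 in KO-MNU, 8165 in KO-vehicle, 9517 in WT-MNU and 7959 in WT-vehicle. WT-MNU was the highest library for this sum and the lowest for Cldn5 and Icam2. Pecam1 made up most of the sum, at 6192 in WT-MNU and 4919 in WT-vehicle, and none of the 5 passed 2-fold between these libraries. Egfl7 (log2 0.66), Pecam1 (0.33) and Plvap (0.33) were above WT-vehicle in WT-MNU, and the endothelial markers Eng (-0.18) and Esam (-0.39) were below it. The part of these markers was not tested.

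Alpha-4 and beta-7 chains differed by about 2-fold at most, and alpha-9 and alpha-E by more. Itga9 encodes the alpha-9 chain, which pairs with beta-1 and binds tenascin-C, Vcam1 and osteopontin. It stood at 844 in KO-MNU, 1229.9 in KO-vehicle, 4437 in WT-MNU and 427 in WT-vehicle, 10.4-fold higher in WT-MNU than in WT-vehicle, the largest ratio upward among the 58 genes. Itgae, the alpha-E chain CD103 that binds E-cadherin with beta-7, stood at 1046 in KO-MNU, 877 in KO-vehicle, 116 in WT-MNU and 832 in WT-vehicle, 7.17-fold lower in WT-MNU. Itga4, the alpha-4 chain of lymphocyte homing receptors, had 7785 in KO-MNU, 6040.0 in KO-vehicle, 3845 in WT-MNU and 7596 in WT-vehicle, and its log2 difference of -0.98 in wild type just missed the call. With upper-quartile scaling it was -1.01 and passed, and KO-MNU was 2.02-fold higher than WT-MNU. Itgb7, which pairs with alpha-4 or alpha-E, had 2979 in KO-MNU, 2306 in KO-vehicle, 1444 in WT-MNU and 1935 in WT-vehicle, 2.06-fold higher in KO-MNU than in WT-MNU and not past 2-fold elsewhere. T-cell and thymocyte markers, all 16 measured, summed to 490733 in KO-MNU, 396283 in KO-vehicle, 269810.0 in WT-MNU and 557934 in WT-vehicle. Their sum in WT-MNU was below that in the other 3 libraries, and Rag1 alone had 32664 in WT-MNU and 123683 in WT-vehicle. Of the 16, 7 were lower in WT-MNU than in WT-vehicle, against 14.2% of all genes (list median log2 -0.95). Ptcra (log2 2.03) was the 1 that was higher, against 7.14% of all genes, and Cd8a held 85.2% of its WT-vehicle level. The part of these markers in the values of Itgae, Itga4 and Itgb7 was not tested.

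Promoter windows are shown for the genes at both ends of the wild-type MNU comparison among members with a single RefSeq promoter: Dsp and Cldn1, the 2 lowest, and Itga9 and Itgam, the 2 highest. Each is the 250 bases before the gene start in GRCm38.p6, written 5′ to 3′ on the strand of the gene. Capitals mark CACCTG, an E-box bound by ZEB and SNAI repressors and by E proteins, or GAGGAA, the core bound by the myeloid ETS factor PU.1, on either strand (CAGGTG and TTCCTC are their reverse complements). These 2 motifs do not overlap in the windows shown, and AACCNGTT, the Grainyhead-like motif, was also searched on both strands. The windows are Dsp at chr13:38151044-38151293 (plus strand), Cldn1 at chr16:26371840-26372089 (minus strand), Itga9 at chr9:118711442-118711691 (plus strand) and Itgam at chr7:128062390-128062639 (plus strand).
Dsp: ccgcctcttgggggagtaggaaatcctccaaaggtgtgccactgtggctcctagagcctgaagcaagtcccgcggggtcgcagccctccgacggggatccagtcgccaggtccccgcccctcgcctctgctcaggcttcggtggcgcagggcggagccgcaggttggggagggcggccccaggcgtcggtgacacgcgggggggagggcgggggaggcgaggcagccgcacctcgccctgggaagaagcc
Cldn1: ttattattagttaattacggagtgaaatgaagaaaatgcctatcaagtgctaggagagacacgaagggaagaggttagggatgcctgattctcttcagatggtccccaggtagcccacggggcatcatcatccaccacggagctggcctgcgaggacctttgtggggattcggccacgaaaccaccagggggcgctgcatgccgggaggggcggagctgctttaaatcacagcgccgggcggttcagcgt
Itga9: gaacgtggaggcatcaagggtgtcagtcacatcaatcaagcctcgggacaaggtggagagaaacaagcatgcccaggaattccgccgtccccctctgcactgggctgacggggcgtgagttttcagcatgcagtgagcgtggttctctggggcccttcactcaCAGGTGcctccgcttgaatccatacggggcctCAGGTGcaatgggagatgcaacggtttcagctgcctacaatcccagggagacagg
Itgam: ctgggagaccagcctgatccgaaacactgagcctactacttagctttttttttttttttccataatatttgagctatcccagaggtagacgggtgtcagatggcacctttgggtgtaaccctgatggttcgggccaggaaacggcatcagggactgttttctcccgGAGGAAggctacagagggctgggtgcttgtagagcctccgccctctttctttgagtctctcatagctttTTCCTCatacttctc
Itga9 held the E-box 87 and 55 bases before the start, and Itgam held the PU.1 core 84 and 15 bases before it. These letters of all 3 motifs were not in the windows of Dsp and Cldn1. The E-box was in 17.2% of 32851 mouse promoter windows of the same length and in 8 of 22 windows of 20 members that matched the table. GAGGAA was in 23.3% of all windows and in 6 of the 22, and AACCNGTT in 1.79% and in 1 of the 22. A match describes letters in a window and is not a binding site.

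The gamma-protocadherin rows made up 22 of the 25 rows called higher in WT-MNU, and they are close to 1 measurement. Gamma-protocadherins are cadherin-like surface proteins best known from neurons, each made from its own first exon spliced to constant exons common to the whole cluster. In GENCODE M21 transcripts of GRCm38, 41.3% to 45.5% of the 31-base words of each gene's transcript were shared by all 22 genes. The lowest, median and highest row were 1076, 1096 and 1499.6 in KO-MNU, 1569, 1593 and 2328 in KO-vehicle, 2487, 2502 and 4250.0 in WT-MNU and 1056, 1077 and 1489 in WT-vehicle. Leaving out Pcdhgc3, Pcdhgc4 and Pcdhgb6, the other 19 rows lay within 4.84% of each other in KO-MNU, 3.32% in KO-vehicle, 3.51% in WT-MNU and 3.94% in WT-vehicle. The rows thus gave almost the same number in a library, and WT-MNU was above the other libraries in all 22, with KO-MNU and WT-vehicle nearly equal.

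Pcdhgc3 was the row that stood above the common level. Its normalised count above the lowest row was 424 in KO-MNU, 759 in KO-vehicle, 1763 in WT-MNU and 433 in WT-vehicle, whereas the largest such excess in any other row was 82.7 in KO-MNU, 95.6 in KO-vehicle, 237 in WT-MNU and 106 in WT-vehicle. The excess of Pcdhgc3 was 4.07-fold higher in WT-MNU than in WT-vehicle, against 2.35-fold for the lowest row. The remaining 21 rows had ratios of 2.30 to 2.38. Pcdha4-g, a symbol that RefSeq lists as an older name of Gm37013 on chromosome 18, stood at 218 in KO-MNU, 297 in KO-vehicle, 550.4 in WT-MNU and 210.2 in WT-vehicle, 2.62-fold higher in WT-MNU than in WT-vehicle. It was counted apart from the gamma rows, and whether it shares sequence with them was not tested.

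**Figure D5:**
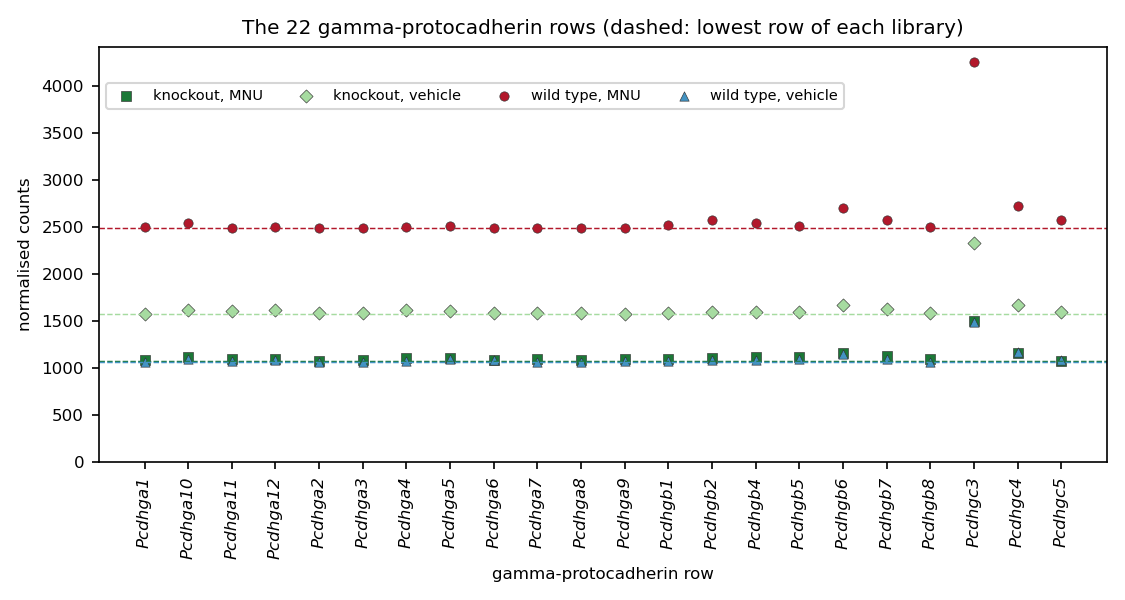
Normalised counts of the 22 gamma-protocadherin rows in the 4 thymus libraries, 1 point per library, with a dashed line at the lowest row of each library. All rows lie near the dashed line except Pcdhgc3, which reaches 4250.0 in WT-MNU, and WT-MNU is the top series throughout.

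Without MNU, loss of CAMKIIgamma went with small differences. KO-vehicle was higher than WT-vehicle for 1 of the 58 genes, against 2.59% of all genes, and lower for none, against 0.359%. The gene was Itga9, at 2.88-fold the WT-vehicle level. Among the other 57, log2 differences ran from -0.75 (Cldn5) to 0.88 (Dsc3). The share of the WT-MNU level in KO-vehicle, taken above the mean of KO-MNU and WT-vehicle, was 15.6% for Itga9 and 11.7% for Itgam. For the gamma-protocadherin rows it was 30.3% to 37.6%, and all 22 stood higher in KO-vehicle than in WT-vehicle by less than 2-fold. With the 15.4% share subtracted from KO-vehicle, the log2 difference of Itga9 between KO-vehicle and WT-vehicle was 0.59, past 2-fold no longer. Dsc2 (1.06), Dsc3 (1.12) and Itgax (1.04) passed 2-fold instead, through the scaling up of what was left. Dsc3, at 2.68 in WT-MNU, had little to subtract, and its KO-vehicle value went from 1755 to 2074.

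With MNU, the 2 genotypes differed widely. KO-MNU was higher than WT-MNU for 16 of the 58 genes, against 15.0% of all genes, and lower for 25, against 7.37%. The 25 were the 22 gamma-protocadherin rows, Itga9, Itgam and Pcdha4-g, which makes 4 of 37 with the gamma rows counted as 1. The 16 were Itga3, Itga4, Itgad, Itgae, Itgax, Itgb4, Itgb5, Itgb7, Icam1, Cdh3, Cdh24, Dsc2, Dsc3, Dsg2, Dsp and Cldn1. This comparison shares WT-MNU with the wild-type MNU comparison, so the 2 are not separate evidence. KO-MNU set against WT-vehicle, a comparison without the KO-vehicle library, gave 2 genes higher (Itgad and Itgax, against 1.57% of all genes) and 1 lower (Cldn5, against 1.11%). Itgam, with 445 in KO-MNU and 678 in WT-vehicle, was not among them.

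The MNU difference in the knockout minus that in wild type was 2 or more on the log2 scale, or 4-fold, for 10 genes, against 6.62% of all genes, and -2 or less for 3, against 3.64%. The 10 were Dsp (7.35), Dsc3 (5.73), Cldn1 (5.72), Dsc2 (5.12), Dsg2 (4.13), Itgae (2.99), Cdh3 (2.77), Icam1 (2.34), Itgax (2.22) and Itgb4 (2.07). The 3 were Itga9 (-3.88), Itgam (-3.27) and Pcdhgc3 (-2.14). Dsp had the widest difference between genotypes, followed by Dsc3 and Cldn1. With the WT-MNU share subtracted from KO-vehicle, Itgb4 (1.85) and Pcdhgc3 (-1.90) no longer reached 4-fold.

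Levels per kilobase of exon, on GENCODE M21 lengths, allowed the genes to be ranked within a library for the 34 members with a length and without the gamma rows. Itgb2 and Itgal led in every library, with Itgb2 at 4412 in KO-MNU, 3469 in KO-vehicle, 2528 in WT-MNU and 3358 in WT-vehicle normalised counts per kilobase. In WT-vehicle the next were Itgb1 (2242), Jup (1938), Icam2 (1728), Vcam1 (1315) and Icam1 (1121). Itga9 was last of the 34 in WT-vehicle, at 59.8, and rank 9 in WT-MNU, at 621. Itgam was rank 7 in WT-MNU against rank 28 in WT-vehicle. Icam1 was rank 17 in WT-MNU against rank 7 in WT-vehicle, and Dsc3, Dsc2 and Cldn1 took the lowest 3 ranks in WT-MNU. The order of neighbouring ranks has no error attached, since each group had 1 library.

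Cytoplasmic and surface partners were counted in 5 lists. Over all genes, 7.14% were higher and 14.2% lower in WT-MNU than in WT-vehicle, and 0.331% were higher and 2.95% lower in KO-MNU than in KO-vehicle. Of 10 measured catenins, plakins and plakophilins, 6 were lower in WT-MNU than in WT-vehicle and none higher (median log2 -1.84, against -0.01 for all genes). Pkp1, plakophilin of stratified epithelial desmosomes, was listed at 0 in WT-MNU and stood at 1312 in KO-MNU, 1936 in KO-vehicle and 1929.7 in WT-vehicle. Perp, a desmosomal membrane protein, had a log2 difference of -4.42, Pkp3 -3.97 and Dst, the plakin of hemidesmosomes, -2.62. The 4 not called were Ctnnb1, beta-catenin (log2 0.36), Pkp4 (-0.19), Macf1 (-0.49) and Plec (-0.77), named after their values were seen. In the knockout none of these 10 was past 2-fold with MNU.

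Integrin adaptors and adhesome genes were divided, with 3 of 32 higher (9.38%, near the share of all genes) and 8 lower (25.0%) in WT-MNU than in WT-vehicle (median log2 -0.24). Tns3, a tensin that links integrins to actin, had 5198 in KO-MNU, 9070.1 in KO-vehicle, 22319 in WT-MNU and 5151 in WT-vehicle. Parvb, a parvin of the same complex as integrin-linked kinase, was also higher (log2 1.77), and Fermt2, a kindlin that activates integrins, was lower (log2 -2.03). The third gene that was higher was Parvg, another parvin (log2 1.40), named after its value was seen. In the knockout, where few genes of any kind passed 2-fold with MNU, none of the 32 did.

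Of 14 tight junction partners and nectins, 2 were higher and 3 lower in WT-MNU than in WT-vehicle (median log2 -0.56). Cadm4, a nectin-like adhesion protein, had 124 in KO-MNU, 576 in KO-vehicle, 2406 in WT-MNU and 144 in WT-vehicle, and Mllt4, afadin, the scaffold of nectins, had 866 in KO-MNU, 2371 in KO-vehicle, 7966 in WT-MNU and 1109.6 in WT-vehicle. Both were highest in WT-MNU and second in KO-vehicle, and they were the 2 genes of this list lower in KO-MNU than in KO-vehicle (log2 -2.13 for Cadm4 and -1.44 for Mllt4). With the WT-MNU share subtracted from KO-vehicle both calls were lost (-0.92 for Cadm4 and -0.64 for Mllt4). F11r, the junctional adhesion molecule JAM-A, and Inadl, a polarity scaffold, were lower in WT-MNU (log2 -2.30 for F11r and -2.58 for Inadl), as was Mpp5 (-1.49).

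Among 17 selectins, mucins and other lymphocyte adhesion genes, 2 were higher and 4 lower in WT-MNU than in WT-vehicle (median log2 -0.47). Alcam, the ligand of CD6, Cd226, a receptor for nectins, and Selplg, the P-selectin ligand, were lower (log2 -3.99 for Alcam, -2.91 for Cd226 and -1.55 for Selplg). Cd44, the hyaluronan receptor, was higher (1.27), and so was Glycam1, a mucin of high endothelial venules, with 530.0 in KO-MNU, 6.47 in KO-vehicle, 39.9 in WT-MNU and 10.9 in WT-vehicle. In KO-MNU Glycam1 was thus far above the other 3 libraries (log2 5.03 against KO-vehicle). Of 10 epithelial and mesenchymal transcription factors, 1 was higher and 6 lower (median log2 -1.73). Lower were Foxn1, listed at 0, Trp63 (log2 -5.89), the master factor of basal epithelium, Ehf (-3.95) and the splicing regulator Esrp2 (-3.08). Snai3 (-2.07) and Tcf4 (-1.40) were the other lower genes. Foxn1 and Trp63 are also among the thymic epithelial markers above. The 1 that was higher was Grhl2, a Grainyhead-like factor of epithelia, with 327 in KO-MNU, 734 in KO-vehicle, 1049.6 in WT-MNU and 329 in WT-vehicle. Grhl2 (log2 -1.14) and Klf4 (-1.03) were the 2 of the list lower in KO-MNU than in KO-vehicle, and with the share subtracted the values were -1.03 for Grhl2 and -1.13 for Klf4. Mpp5, Glycam1, Snai3, Tcf4, Grhl2 and Klf4 were named after their values were seen.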

How the data were processed

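Per the labels' protocols, TruSeq libraries were made from total RNA of integrity number above 7.5. The submitters' processing notes name the tools TopHat2 2.0.8b and edgeR and the build mm9, without role. How genes were counted, annotated, filtered and normalised is not stated in the sources used here. The deposited signal was a table of normalised counts per the file headers, not whole numbers, summing to 32911362 to 34836257 per library, so no count model and no counting interval was used and the precision set by depth is unknown. Differences were taken on log2(normalised count + 10). A gene needed a mean of 10 over the 4 libraries, which removed 11 genes and left 10587. All 58 members passed. Calls were at 2-fold, or 4-fold for the difference of the MNU differences. Ratios and percentages of single genes are of the normalised counts themselves.

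Members, lists, thresholds and the naming rule were chosen with earlier results of these data known. The rule gives the 4 values of members past 2-fold in any comparison or reaching 5000, and up to 4 genes of each partner list with the largest difference, some of which are not reported here, and the gamma-protocadherin rows are given as a range since their values were nearly the same. Other members named (Cldn4, Epcam, Tjp3, Cldn25, Cdh1, Cdh5, Itga5, Itga6, Itgav, Icam2 and Itgb1bp1) lie outside it and were added after their values were seen, as were the cell type markers named singly. Of the 58 symbols 56 matched a current RefSeq symbol. Members on mouse chromosome 18, 26 in number, have no sequence shown, and no coordinates of the mm9 build are given. Alternatives were other pseudocounts, filters, scalings and thresholds, the share of WT-MNU subtracted from KO-vehicle, and, added after seeing the data, the gamma rows counted as 1. The fold calculation was tested on simulated data. Python 3.11.15, pandas 2.3.3 and numpy 2.4.6 were used.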

Additional observations from a re-analysis of the deposited data

Results flagged for a closer look

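For 7 genes MNU and vehicle differed in opposite directions in the 2 genotypes, with at least 4-fold between the differences. Over all genes, 6.62% passed this 4-fold upward and 3.64% downward, whatever the directions in each genotype. The share of all genes that was also opposite in direction is not given here, so the 7 have no background count. The values that follow are the MNU difference in the knockout minus that in wild type, on log2(normalised count + 10). Cldn1 (5.72), Itgae (2.99), Icam1 (2.34) and Itgax (2.22) were higher with MNU in the knockout and lower with MNU in wild type. Itga9 (-3.88), Itgam (-3.27) and Pcdhgc3 (-2.14) were lower with MNU in the knockout and higher with MNU in wild type. In the knockout the differences of all 7 were under 2-fold. With the WT-MNU share subtracted from KO-vehicle, the knockout difference turned direction for 3 of them. It was 0.38 for Itga9, 0.01 for Itgam and -0.02 for Cldn1, so that these 3 were no longer opposite to wild type. The KO-vehicle value of Cldn1 rose from 564 to 666 in this step, through the scaling up. The knockout difference kept its direction for Itgae (0.04), Icam1 (0.16), Itgax (0.43) and Pcdhgc3 (-0.40), close to none for Itgae. The knockout minus wild-type value for Pcdhgc3 was then -1.90, under 4-fold. With 1 library per group these differences between genotypes were not tested.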

How the results depend on the processing

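No paired analysis was possible because each group had 1 library and the labels give no replicate numbers, and for the same reason no replicate could be left out. Of the 58 genes, 39 passed 2-fold with MNU in wild type, 0 with MNU in the knockout, 1 between the vehicle groups, 41 between the MNU groups and 3 between KO-MNU and WT-vehicle, and 13 passed 4-fold for the difference of MNU differences. The shares of all genes beside these counts are given above, by direction. A 4-fold threshold, or 8-fold for the last, left 11, 0, 0, 13, 0 and 7 in that order. The shares of all genes at these raised thresholds are not given here, so the lower counts have no background. With the gamma rows as 1, chosen after seeing the data, 18 of 37 passed in wild type (4 higher, 14 lower) and 20 of 37 between the MNU groups (16 higher, 4 lower). Subtracting the WT-MNU share gave 3 between the vehicle groups, which passed through the scaling up of KO-vehicle in that step. KO-MNU against WT-vehicle gave 3, in place of the 0 with MNU in the knockout and of the 1 between the vehicle groups. Other pseudocounts, filters and scalings kept each of these counts within 1.5 times, and under every alternative run no value past its threshold changed sign. Subtracting the share turned the sign of values under 2-fold: 7 of the 58 with MNU in the knockout, and 2 between the vehicle groups, Cldn1 (0.23) and Itgam (-0.61). Itgb4 left the difference of MNU differences with a pseudocount of 40 (1.92) or the share subtracted (1.85), as did Pcdhgc3 with the share subtracted (-1.90). The depth behind the deposited values is unknown, so counting error cannot be set beside the low values of Dsc2, Dsc3 and Cldn1 in WT-MNU.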

Other observations

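Some genes that neighbour each other in GRCm38 and belong to the same family went different ways, and others did not. Itgam, Itgax and Itgad lie side by side on chromosome 7, and their log2 differences, WT-MNU minus WT-vehicle, were 2.29, -1.59 and -0.15. Cdh3 and Cdh1 lie side by side on chromosome 8, with -3.25 for Cdh3 and 0.49 for Cdh1. Dsc3 and Dsc2, neighbours on chromosome 18, had similar values, -6.24 and -5.45. The gamma-protocadherin rows of that chromosome, close to 1 measurement, ran from 1.19 to 1.51. With 1 library per group these values have no replicate check.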
